A study of Mus musculus with 12 samples.

Results

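The Kruppel-like factors measured here were Klf2, Klf4, Klf6, Klf7, Klf9, Klf10, Klf13 and Klf15. Every probe set that the array annotation names with 1 of these symbols was taken, which gave 24 probe sets for 8 of 18193 annotated genes. They came from 12 Affymetrix mouse expression arrays of the medial prefrontal cortex (PFC), in 4 groups of 3 arrays. All mice were adult males, of 12 weeks in the labels. The methods give 12 weeks as the age when the mice were obtained, with 1 week in the facility before the experiments. The stocks were B6129SF2/J for controls and B6;129S7-Fyntm1Sor/J for Fyn-null mice, which lack the tyrosine kinase Fyn in every cell. Because the genotypes were separate stocks, loss of Fyn and background cannot be told apart. Both genotypes had been habituated to saline injections. Mice then received saline or ethanol at 3 g/kg by intraperitoneal injection and were killed 4 hours later. RNA of 3 mice was pooled for each array. The sample labels give 24 mice per genotype and 12 per group, more than 3 pools of 3, whereas the lower numbers in the methods match the pools.

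Kruppel-like factors bind GC-rich and CACCC sequences through C2H2 zinc fingers near the carboxyl terminus, and they differ in the cofactors that their amino-terminal regions recruit. Klf2, Klf4, Klf6 and Klf7 belong to a group that mostly activates transcription through acetyltransferases. Klf9, Klf10 and Klf13 recruit the Sin3A corepressor, and Klf15 stands apart from both groups. In brain, Klf7 is known for axon outgrowth, Klf9 for hormone-dependent maturation of neurons, and Klf2 and Klf4 for quiescence of the endothelium. Klf9 and Klf15 are known targets of the glucocorticoid receptor, and Klf10 was first described as an early gene induced by TGF-beta.

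The sequences upstream of Klf9 and Klf15 are shown because both genes rose after ethanol in the comparisons below. That of Klf13 is shown beside them because its product shares the corepressor of Klf9. Each is the 250 bases before the annotated start of the gene, from RefSeq on GRCm38.p6 and written 5′ to 3′ on the strand of the gene. The windows are chr19:23140976-23141225 (plus strand) for Klf9, chr6:90462326-90462575 (plus strand) for Klf15 and chr7:63938916-63939165 (minus strand) for Klf13. Capitals mark the GC box, the CACCC box and the E-box, on either strand.
Klf9: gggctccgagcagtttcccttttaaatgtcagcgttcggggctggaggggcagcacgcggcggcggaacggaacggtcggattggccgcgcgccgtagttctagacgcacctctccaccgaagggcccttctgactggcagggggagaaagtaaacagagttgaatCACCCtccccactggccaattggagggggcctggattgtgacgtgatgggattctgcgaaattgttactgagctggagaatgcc
Klf15: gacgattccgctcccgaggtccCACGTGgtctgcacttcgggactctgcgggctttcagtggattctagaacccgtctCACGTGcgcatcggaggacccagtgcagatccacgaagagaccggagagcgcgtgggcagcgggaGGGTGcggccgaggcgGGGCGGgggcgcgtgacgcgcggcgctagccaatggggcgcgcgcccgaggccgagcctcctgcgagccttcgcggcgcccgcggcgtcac
Klf13: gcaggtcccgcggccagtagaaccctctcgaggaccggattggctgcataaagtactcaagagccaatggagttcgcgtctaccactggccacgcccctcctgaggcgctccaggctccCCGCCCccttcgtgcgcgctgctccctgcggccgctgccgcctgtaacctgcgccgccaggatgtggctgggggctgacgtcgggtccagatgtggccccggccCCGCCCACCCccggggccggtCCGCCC

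The GC box was searched as GGGCGG. The E-box was searched as CACGTG, and the CACCC box by the letters of its name. The Klf9 window held 1 CACCC box and no GC box. That of Klf15 held 2 E-boxes, 1 GC box and 1 CACCC box, and that of Klf13 held 3 GC boxes and 1 CACCC box, of which the CACCC box overlapped a GC box. Windows were found for 7 of the 8 genes, all but Klf10. A GC box was in 6 of the 7, a CACCC box in 5 and an E-box in 3, against 32.7%, 52% and 6.02% of 32851 windows of the same length over all genes. None of the 7 held a glucocorticoid receptor half-site (TGTTCT) or a cAMP response element (TGACGTCA), which were in 16.1% and 1.55% of all windows. The 7 windows had 59.2% to 74% G and C bases, against a median of 52.4% over all windows. The motif shares were not adjusted for this, so they do not set these genes apart from other windows as rich in G and C. These counts describe letters in a short window and say nothing of binding.

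Values are log2 RMA expression values, which are not comparable between probe sets. Of the 24 probe sets, 21 passed a filter that left out the 45% of probe sets with the lowest mean. The other 3 were Klf4 1417395_at, Klf6 1459718_x_at and Klf9 1452723_at, with group means of 5.04 to 5.17, 3.08 to 3.33 and 4.10 to 4.21. Where a gene had several probe sets, the brightest on average stood for it. Pools are listed by replicate number throughout, which was 1, 2 and 3 in control saline, 1, 2 and 4 in control ethanol, 2, 3 and 4 in Fyn-null saline, 1, 2 and 3 in Fyn-null ethanol. Differences were tested with limma over the 24770 probe sets that passed, and those with an adjusted p under 0.05 (Benjamini-Hochberg) were called. Precision was set by the number of arrays. The standard error had a median of 0.108 where 3 arrays were set against 3 and of 0.0764 where 6 were set against 6. All 8 neuronal markers listed passed the filter, with summed linear values of 28200 to 32600 per array.

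Some features of the arrays bear on every value below. Fyn was read by the brightest probe set tested for that gene. It read 8.74 in the pool labelled control saline replicate 2, below 9.31 and 9.65 in the other control saline pools. Replicate 4 of the pools labelled Fyn-null saline read 9.45, above 8.89 and 8.64 in the other Fyn-null saline pools. The other controls read 9.31 to 9.70 and the other Fyn-null pools 8.64 to 9.01. On this probe set these 2 saline pools thus each read as the other genotype. No source used here places the probe set inside or outside the disrupted part of the gene. Labels were kept, and results are also given without both of these pools. Signal was more 3′-weighted in saline than in ethanol pools. The 3′ minus 5′ log2 difference, averaged over the Gapdh and Actb control probe sets, was 0.542 to 0.991 in control saline and 0.763 to 0.845 in Fyn-null saline. After ethanol it was 0.40 to 0.481 in controls and 0.387 to 0.627 in Fyn-null mice. Its part in the ethanol differences was not tested apart from a fit that included it as a covariate.

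After ethanol, Klf9 and Klf15 were higher and Klf10 was lower, while Klf2, Klf4, Klf7 and Klf13 had no called probe set. Over both genotypes, with genotype as an additive term, 8 of the 21 probe sets were called. These were 5 of the 6 of Klf9 and that of Klf15, which were higher, and that of Klf10 and 1 of 4 of Klf6, which were lower. The share was 38.1%, against 6.81% of all probe sets tested. Of all probe sets, 2.58% were called higher and 4.22% lower, against 6 and 2 of the 21. The median difference was 0.09 over the 21 probe sets and -0.02 over all. Probe sets of 1 gene read the same transcripts, so these counts are not counts of independent genes. The members were chosen with earlier results of these data known, so their shares are not independent evidence either. In 5 of the 21 the 6 ethanol pools did not overlap the 6 saline pools, against 3.9% of all probe sets. In controls alone 5 of 21 were called (4 higher, 1 lower), against 1.43% of all (0.509% higher, 0.925% lower). In Fyn-null mice 3 were called (2 higher, 1 lower), against 0.4% of all (0.254% higher, 0.145% lower). The groups of 3 did not overlap for 8 probe sets in controls and 9 in Fyn-null mice, where the shares over all probe sets were 23% and 18.1%.

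These counts changed when single pools were left out or the 3′ weighting was added to the fit. In controls 1 probe set was called without saline replicate 1 or ethanol replicate 1, 2 without saline replicate 2, and 3 without saline replicate 3 or ethanol replicate 2. In Fyn-null mice 1 was called without saline replicate 3, ethanol replicate 2 or ethanol replicate 3. Without both pools of doubtful label 1 was called in each genotype, Klf10 in both, and 6 over both genotypes. With the 3′ minus 5′ difference as a covariate 0 of the 21 were called in controls, in Fyn-null mice or over both, and the number called among all 24770 over both genotypes went from 1686 to 27. Some differences shrank in that fit and others grew, while standard errors rose. In Fyn-null mice Klf10 went from -0.79 to -0.66 and Klf9 1436952_at from 0.77 to 0.53. Over both genotypes Klf6 1447448_s_at went from -0.30 to -0.07, Klf9 1436952_at from 0.51 to 0.25 and Klf15 from 0.49 to 0.60. In controls Klf15 went from 0.56 to 0.66 (standard error 0.0944 to 0.121), Klf9 1422264_s_at from 1.05 to 1.24 (0.185 to 0.248) and Klf10 from -0.88 to -0.77 (0.108 to 0.141).

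**Figure D1:**
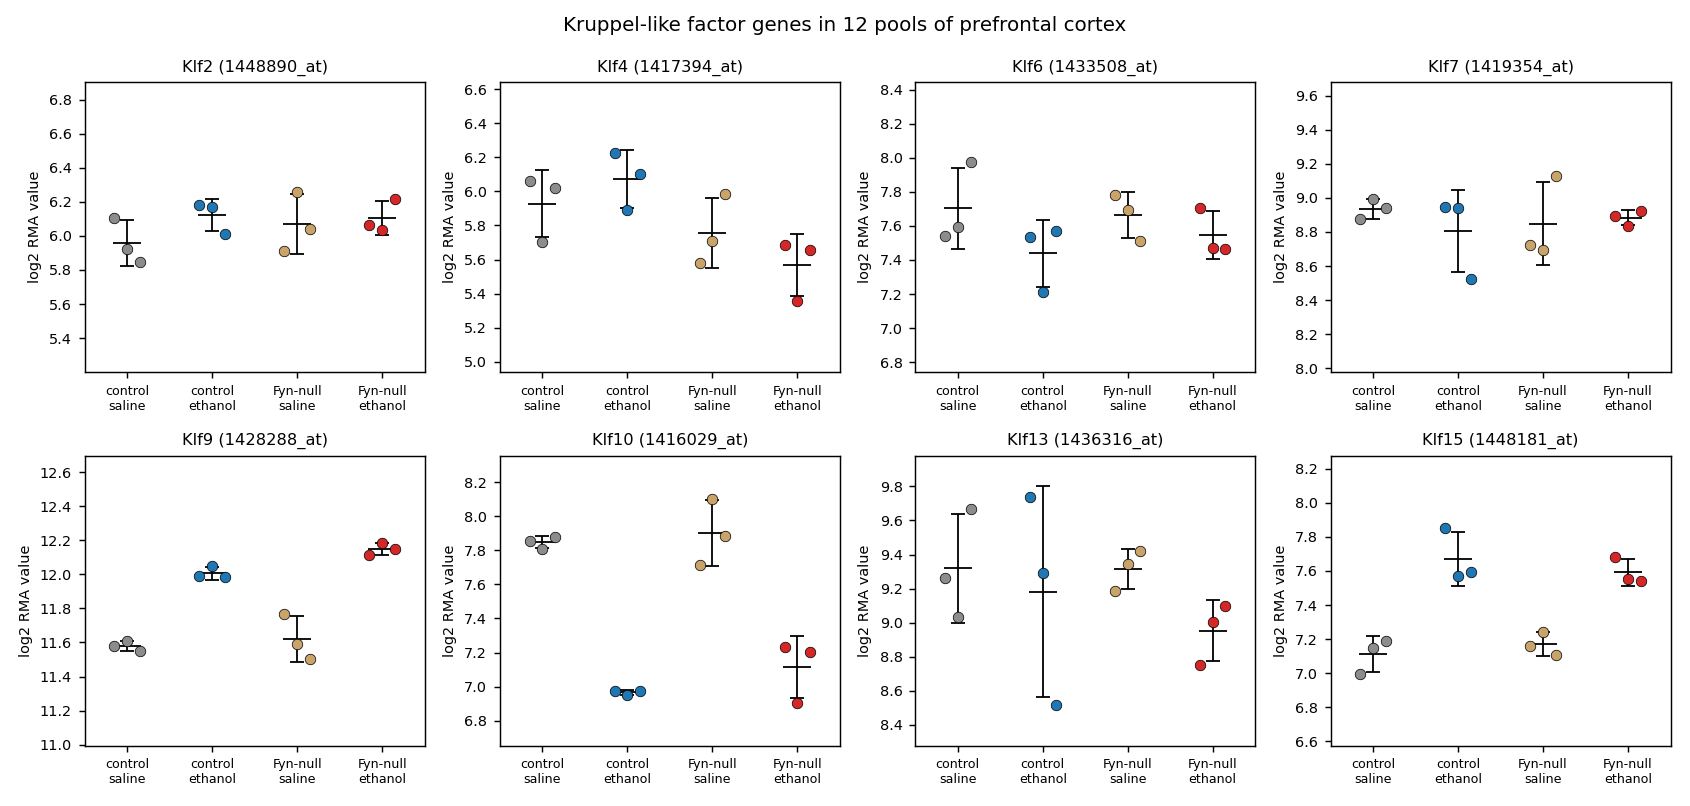
Log2 RMA value (vertical axis) of the brightest probe set of each gene in the 12 pools, by genotype and treatment (horizontal axis). Points are pools and bars are mean ± SD (n = 3); Klf9 and Klf15 sit higher and Klf10 sits lower in all 6 ethanol pools than in any saline pool, and the scales start at a different value in each panel.

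Among the activator group, Klf2, which is induced in endothelium by shear stress, was measured by 1 probe set. It was 6.10, 5.92 and 5.84 in control saline, 6.18, 6.17 and 6.01 in control ethanol, 5.91, 6.26 and 6.04 in Fyn-null saline and 6.06, 6.04 and 6.22 in Fyn-null ethanol. The 4 groups overlapped. The ethanol minus saline difference was 0.16 in controls (95% interval -0.07 to 0.39) and 0.04 in Fyn-null mice (-0.19 to 0.27).

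Klf4, known as a reprogramming factor and, like Klf2, for quiescence of vessels, had 1 tested probe set (1417394_at). It was 6.06, 5.70 and 6.02 in control saline, 6.22, 5.89 and 6.10 in control ethanol, 5.58, 5.71 and 5.98 in Fyn-null saline and 5.69, 5.36 and 5.66 in Fyn-null ethanol. Under ethanol the 3 Fyn-null pools lay below the 3 control pools, and under saline the genotypes overlapped. The genotype difference under ethanol was -0.50 (standard error 0.14, adjusted p = 0.168, limma), and over both treatments it was -0.34 (adjusted p = 0.336). Without both pools of doubtful label it was -0.46 over both treatments (adjusted p = 0.0155), with 2 pools left in each saline group and 669 of all 24770 probe sets called in the same fit. Ethanol minus saline was 0.14 in controls and -0.19 in Fyn-null mice, and neither was called. The other Klf4 probe set (1417395_at), left out by the filter, did not have lower means in Fyn-null mice. Its means after saline were 5.17 in controls and 5.17 in Fyn-null mice, and after ethanol 5.04 and 5.09.

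Most tested markers of the endothelium, the cells best known for Klf2 and Klf4, were lower after ethanol. Of all probe sets, 4.22% were called lower over both genotypes, 0.925% in controls and 0.145% in Fyn-null mice. Of 12 markers listed, 9 were tested and 6 were called lower over both genotypes, 5 in controls and 2 in Fyn-null mice. Cldn5, a tight junction protein, was at -0.64 (adjusted p = 0.000312), Slco1a4, an organic anion transporter, at -0.57 (adjusted p = 0.000259), Tek, an angiopoietin receptor, at -0.92 (adjusted p = 0.00275) and Flt1, a VEGF receptor, at -0.41 (adjusted p = 0.00164). The summed linear value of the 9 was 1400 to 1580 in control saline, 1020 to 1100 in control ethanol, 1530 to 1610 in Fyn-null saline and 1140 to 1260 in Fyn-null ethanol, so ethanol and saline pools did not overlap. The uncalled markers over both genotypes were Pecam1 at -0.08, Esam at 0.06 and Ocln at 0.11, and Ocln was at 0.34 in Fyn-null mice. Tie1, Emcn and Ly6c1 were not tested. In whole tissue, fewer cells of a type and less RNA per cell cannot be told apart, and the part of endothelial content in the values of Klf2 and Klf4 was not tested.

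Klf6, an early gene after injury and in growth factor signalling, had 4 tested probe sets. The brightest (1433508_at) was 7.54, 7.59 and 7.97 in control saline, 7.53, 7.21 and 7.57 in control ethanol, 7.78, 7.70 and 7.51 in Fyn-null saline and 7.71, 7.47 and 7.47 in Fyn-null ethanol. Saline and ethanol pools overlapped in both genotypes, and ethanol minus saline over both was -0.19 (standard error 0.09, adjusted p = 0.236, limma). A second probe set (1447448_s_at) was 7.05, 7.23 and 7.38 in control saline, 6.95, 6.74 and 6.92 in control ethanol, 7.33, 7.25 and 7.17 in Fyn-null saline and 7.22, 6.81 and 6.98 in Fyn-null ethanol. It was called lower over both genotypes at -0.30 (standard error 0.08, adjusted p = 0.0425), although a Fyn-null ethanol pool lay among the saline pools. The suffix s marks probes that can read more than 1 transcript. This call was made in 7 of 20 alternative analyses and ended without any 1 of the pools other than control saline replicate 1, Fyn-null saline replicate 4 and Fyn-null ethanol replicate 1, and with the 3′ minus 5′ covariate the difference was -0.07. The other 2 probe sets (1427742_a_at and 1418280_at) had differences of 0.09 and 0.04, and across the 12 arrays the probe sets of Klf6 correlated at -0.15 to 0.872.

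Klf7, needed for outgrowth of sensory and olfactory axons, had 4 tested probe sets and none was called. The one with the highest mean (1419354_at) was 8.88, 8.99 and 8.94 in control saline, 8.94, 8.94 and 8.53 in control ethanol, 8.73, 8.69 and 9.13 in Fyn-null saline and 8.89, 8.83 and 8.92 in Fyn-null ethanol. Its ethanol difference was -0.13 in controls (95% interval -0.42 to 0.15) and 0.03 in Fyn-null mice (-0.25 to 0.32). The widest spread was in 1419356_at, which ranged from 5.58 in Fyn-null saline replicate 3 to 7.91 in control ethanol replicate 1. Its genotype difference under ethanol was -0.88 (adjusted p = 0.347, limma), and over both treatments it was -0.70 (adjusted p = 0.386). Without both pools of doubtful label the latter was -1.02 (adjusted p = 0.0283), with 2 pools left in each saline group. With all pools, the genotype differences over both treatments of 1419354_at, 1449439_at and 1419355_at were -0.004, 0.069 and 0.038. So a lower level in Fyn-null mice was seen in 1419356_at and not in the gene's other probe sets. The other Klf7 probe sets, 1449439_at and 1419355_at, had ethanol differences over both genotypes of -0.13 (adjusted p = 0.311) and -0.18 (adjusted p = 0.155).

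Klf9, the first of the Sin3A group, rose after ethanol in both genotypes. Its brightest probe set (1428288_at) was 11.58, 11.61 and 11.55 in control saline and 11.99, 12.05 and 11.98 in control ethanol. In Fyn-null mice it was 11.77, 11.59 and 11.50 after saline and 12.11, 12.19 and 12.15 after ethanol. All 6 ethanol pools were above all 6 saline pools, and within a treatment the genotypes differed by 0.04 under saline and 0.14 under ethanol, neither called. Ethanol minus saline was 0.43 in controls (standard error 0.08, adjusted p = 0.0253) and 0.53 in Fyn-null mice (adjusted p = 0.0134). Over both genotypes it was 0.48 (standard error 0.06, a fold of 1.39, adjusted p = 0.000436). Without both doubtful pools it was 0.46 (adjusted p = 0.00234), and with the 3′ minus 5′ covariate 0.41 (adjusted p = 0.13).

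The other Klf9 probe sets did not give 1 picture of the genotypes. The probe set 1428289_at was 10.52, 10.52 and 10.66 in control saline, 11.06, 11.10 and 10.91 in control ethanol, 10.51, 10.52 and 10.78 in Fyn-null saline and 11.00, 10.97 and 11.06 in Fyn-null ethanol, and its response over both genotypes was 0.43 (adjusted p = 0.00217). The probe set 1422264_s_at was 6.85, 6.59 and 7.04 in control saline, 8.23, 7.67 and 7.71 in control ethanol, 6.94, 6.51 and 6.90 in Fyn-null saline and 7.62, 7.09 and 7.26 in Fyn-null ethanol. Its response was 1.05 in controls (standard error 0.18, adjusted p = 0.0213) and 0.54 in Fyn-null mice (adjusted p = 0.279). The opposite order was seen in 1436952_at. That probe set was 7.10, 6.98 and 6.70 in control saline, 7.15, 7.03 and 7.35 in control ethanol, 6.98, 6.70 and 7.03 in Fyn-null saline and 7.62, 7.74 and 7.65 in Fyn-null ethanol. Its response was 0.25 in controls (adjusted p = 0.293) and 0.77 in Fyn-null mice (adjusted p = 0.0194, standard error 0.12).

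A probe set for several transcripts of the gene (1456341_a_at) was 10.47, 10.64 and 10.69 in control saline, 11.03, 10.53 and 10.91 in control ethanol, 10.81, 10.45 and 10.96 in Fyn-null saline and 11.44, 11.38 and 11.24 in Fyn-null ethanol. It was called over both genotypes (0.42, adjusted p = 0.0437) but in neither alone. That call was made in 7 of 20 alternatives and ended without any 1 of the pools other than control saline replicate 2, control ethanol replicate 2 and Fyn-null saline replicate 4. The last probe set, 1436763_a_at, was 7.56, 7.77 and 7.91 in control saline, 7.81, 7.53 and 7.82 in control ethanol, 7.77, 7.33 and 7.98 in Fyn-null saline and 8.37, 8.17 and 8.35 in Fyn-null ethanol. All Fyn-null ethanol pools lay above the other pools, and its response was -0.02 in controls and 0.61 in Fyn-null mice (adjusted p = 0.133). Tested directly, the Fyn-null minus control difference of responses was -0.51 for 1422264_s_at, 0.52 for 1436952_at, 0.40 for 1456341_a_at and 0.63 for 1436763_a_at (adjusted p = 0.992 for each). Across the 12 arrays the 6 probe sets correlated at 0.278 to 0.92. Over both genotypes 1436952_at was called at 0.51 (adjusted p = 0.0175), but not with replicate number as a block (0.47, adjusted p = 0.0662) or with the 3′ minus 5′ covariate (0.25, adjusted p = 0.736). The ethanol rise of Klf9 was called in 5 of 6 probe sets over both genotypes, of which 1428288_at, 1428289_at and 1422264_s_at kept the call in 19 of 20 alternatives, whereas the sign of the genotype difference in response varied among probe sets and none was called.

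The Klf9 calls within a genotype depended on single pools. In controls, leaving out saline replicate 1 left responses of 0.43, 0.44 and 1.06 for 1428288_at, 1428289_at and 1422264_s_at with adjusted p = 0.0613, 0.0775 and 0.0535, and no Klf9 probe set was called without saline replicate 2 or ethanol replicate 1 either. The first of them was at adjusted p = 0.0614 and 0.0777 there, and at 0.0858 and 0.0818 without saline replicate 3 and ethanol replicate 2. In Fyn-null mice 1428288_at was at adjusted p = 0.0773, 0.0544, 0.0737 and 0.0813 without saline replicates 3 and 4 and ethanol replicates 2 and 3. There 1436952_at was not called without saline replicate 3 (adjusted p = 0.093) or any ethanol replicate (0.0639 to 0.104). The control call of 1428289_at also ended without saline replicate 3, ethanol replicate 2 or Fyn-null ethanol replicates 1 or 3 (adjusted p = 0.0713, 0.107, 0.0518 and 0.0613). Over both genotypes the 1428288_at response held under each omission, at 0.45 to 0.51.

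**Figure D2:**
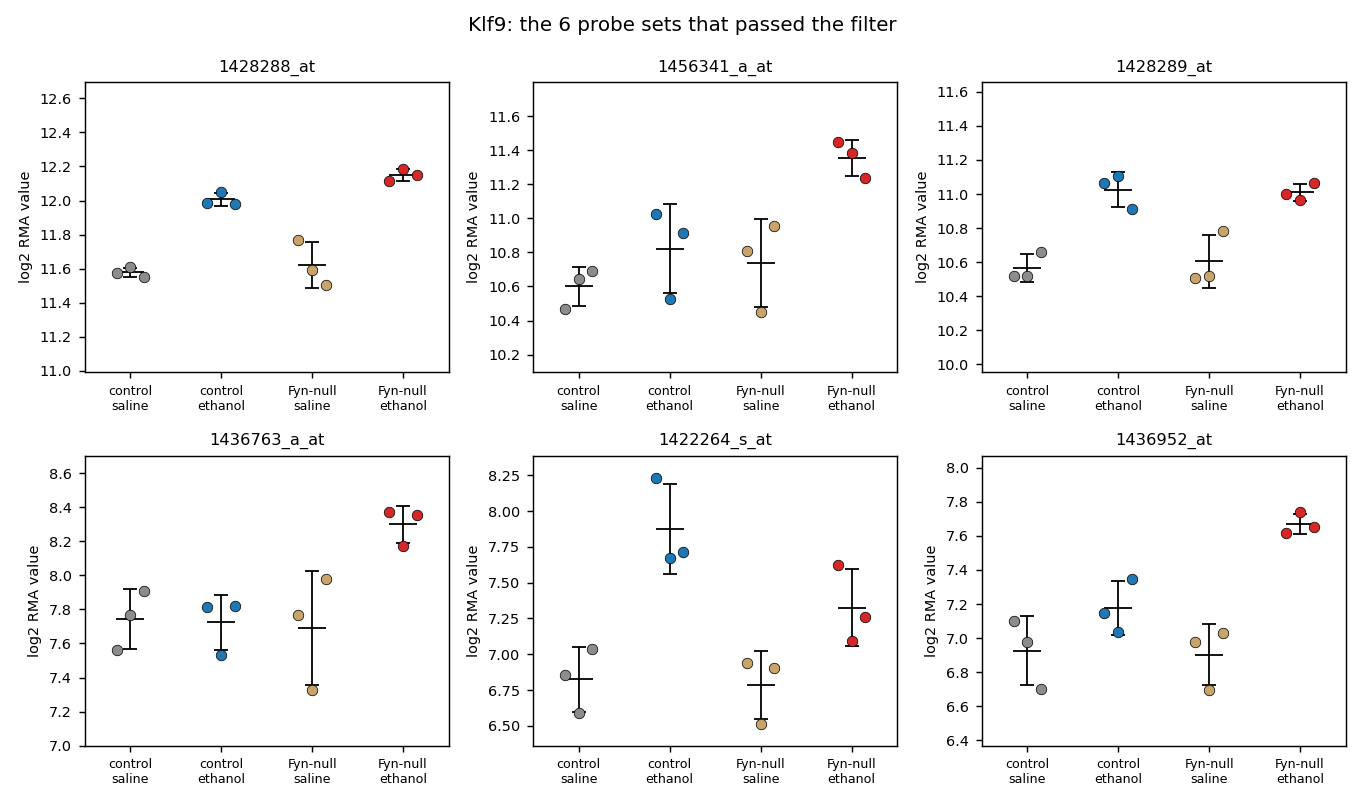
Log2 RMA value (vertical axis) of the 6 tested Klf9 probe sets in the 12 pools by genotype and treatment (horizontal axis). Points are pools and bars are mean ± SD (n = 3); in 1422264_s_at the control ethanol pools are highest, in 1436952_at, 1436763_a_at and 1456341_a_at the Fyn-null ethanol pools are highest, and each panel has its own scale.

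Klf10, which curbs proliferation downstream of TGF-beta, fell after ethanol in both genotypes. Its single probe set (1416029_at) was 7.85, 7.81 and 7.88 in control saline and 6.97, 6.95 and 6.97 in control ethanol. In Fyn-null mice it was 7.71, 8.10 and 7.88 after saline and 7.23, 6.90 and 7.21 after ethanol. Every ethanol pool was below every saline pool. The change was -0.88 in controls (standard error 0.11, a fold of 0.543, adjusted p = 0.00426) and -0.79 in Fyn-null mice (a fold of 0.58, standard error 0.11, adjusted p = 0.00782). Over both genotypes it was -0.83 (standard error 0.07, adjusted p = 6.66e-05). The genotypes overlapped under each treatment, and the difference of responses was 0.09 (95% interval -0.24 to 0.43).

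Klf10 was called in each genotype with any single pool left out. The Fyn-null call ended in a fit of only the 2 groups compared (adjusted p = 0.0573), whereas the control call held there (adjusted p = 0.011). Without both doubtful pools the changes were -0.90 in controls (adjusted p = 0.0241) and -0.80 in Fyn-null mice (adjusted p = 0.0425). With the 3′ minus 5′ covariate it was -0.72 over both genotypes (standard error 0.12) with adjusted p = 0.0521, and -0.77 and -0.66 in controls and Fyn-null mice with adjusted p = 0.145 and 0.276.

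Klf13, a regulator of Ccl5 in lymphocytes that is close to Klf9 in sequence, had 3 tested probe sets and none was called. The brightest (1436316_at) was 9.26, 9.03 and 9.67 in control saline, 9.74, 9.29 and 8.52 in control ethanol, 9.19, 9.35 and 9.42 in Fyn-null saline and 8.75, 9.01 and 9.10 in Fyn-null ethanol. The control ethanol pools spread over more than the whole range of the control saline pools. A second probe set (1432543_a_at) was 8.77, 8.82 and 8.91 in control saline, 8.45, 8.96 and 8.57 in control ethanol, 8.70, 8.46 and 9.04 in Fyn-null saline and 9.21, 9.04 and 9.27 in Fyn-null ethanol. Its responses were -0.18 in controls and 0.44 in Fyn-null mice, and their difference of 0.62 (standard error 0.21) was at adjusted p = 0.992. For 1436316_at the responses were -0.14 and -0.36. The third, 1456030_at, was at 0.05 and 0.10, and across arrays the Klf13 probe sets correlated at -0.491 to -0.0358, so they did not follow each other.

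Klf15, a regulator of amino acid catabolism and an antagonist of hypertrophy in heart, rose after ethanol. Its probe set (1448181_at) was 7.00, 7.15 and 7.19 in control saline and 7.85, 7.57 and 7.59 in control ethanol. In Fyn-null mice it was 7.16, 7.24 and 7.11 after saline and 7.68, 7.55 and 7.54 after ethanol. Saline and ethanol pools did not overlap in either genotype. The change was 0.56 in controls (standard error 0.09, adjusted p = 0.0188) and 0.42 in Fyn-null mice (adjusted p = 0.0896). Their difference was -0.14 (95% interval -0.43 to 0.15), so the single call in controls does not show a difference between genotypes. Over both it was 0.49 (standard error 0.07, a fold of 1.40, adjusted p = 0.00147).

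The Klf15 call in controls ended without saline replicate 1 (0.50, adjusted p = 0.0541) or ethanol replicate 1 (0.47, adjusted p = 0.0631). Without both doubtful pools Klf15 was at 0.58 in controls (adjusted p = 0.0511) and 0.48 over both genotypes (adjusted p = 0.00862). With the 3′ minus 5′ covariate it was 0.60 over both (standard error 0.11, adjusted p = 0.0674).

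**Figure D3:**
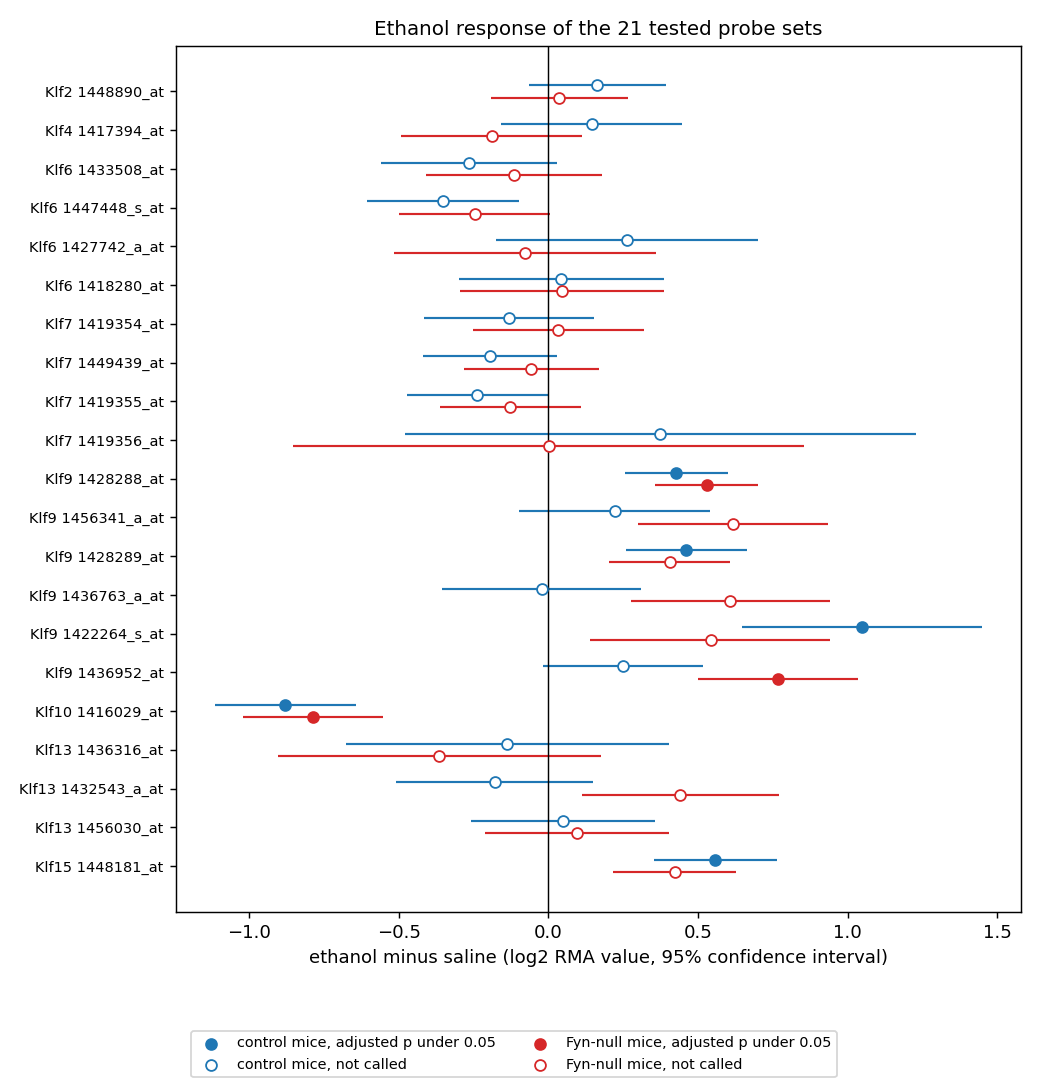
Ethanol minus saline difference in log2 RMA value (horizontal axis) for the 21 tested probe sets (vertical axis) in control and Fyn-null mice. Points are estimates, lines are 95% confidence intervals and filled points have an adjusted p under 0.05; Klf10 lies near -0.88 and -0.79, Klf15 at 0.56 and 0.42, and the Klf9 probe sets from -0.02 to 1.05.

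**Figure D4:**
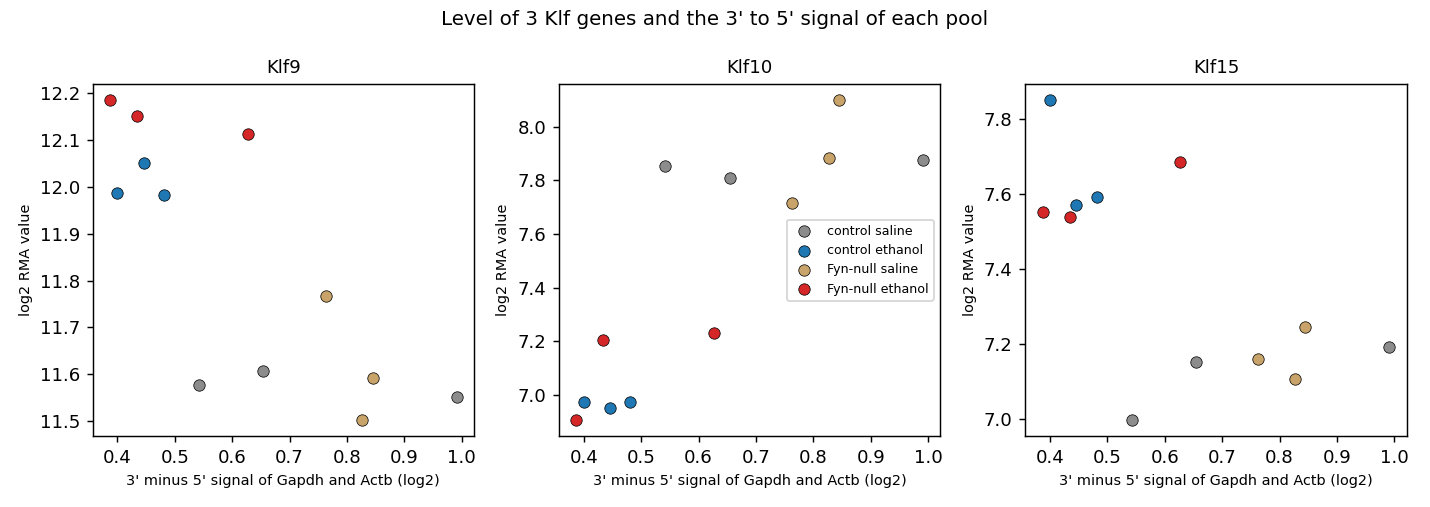
Log2 RMA value (vertical axis) of the brightest probe set of Klf9, Klf10 and Klf15 against the mean 3′ minus 5′ log2 difference of the Gapdh and Actb control probe sets (horizontal axis) in the 12 pools. Points are pools, coloured by group; ethanol pools lie between 0.387 and 0.627 and saline pools between 0.542 and 0.991 on the horizontal axis, so the treatments nearly separate on it.

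Between the genotypes no Klf probe set was called. Of all 24770 probe sets, 0% were called under saline, 0% under ethanol, 0% over both treatments and 0% for the difference of the ethanol responses. At an unadjusted p under 0.05 there were 467, 3380, 2739 and 1023 of all probe sets and 0, 7, 3 and 3 of the 21. These absences of calls depended on the pools of doubtful label. Without both, 44, 260 and 669 of all probe sets were called under saline, under ethanol and over both treatments, with 0, 0 and 2 of the 21 among them. Over both treatments 129 were called without control saline replicate 2 alone and 57 without Fyn-null saline replicate 4 alone, with 0 of the 21. Under saline 0 of 21 Klf probe sets had genotypes that did not overlap, where the share over all probe sets was 5.16%. Under ethanol 10 of 21 did not overlap (6 higher, 4 lower in Fyn-null mice), where the share over all probe sets was 20.3%. The lowest adjusted p under ethanol was 0.145, for Klf9 1436952_at.

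Other zinc finger genes of the family had no call after ethanol by their brightest probe sets. These genes had 21 tested probe sets, of which only the brightest of each gene was counted. Of all probe sets, 1.43% were called in controls, 0.4% in Fyn-null mice and 6.81% over both genotypes. At unadjusted p under 0.05 the shares were 18.9%, 11.7% and 24.3%. Of the other 18 Klf and Sp genes listed, 15 were on the array and 12 were tested. Of these, 0 were called after ethanol in controls, in Fyn-null mice or over both genotypes. At unadjusted p under 0.05 there were 2, 1 and 2. Among 12 genes, 0 calls is near the shares over all probe sets. The median difference of these 12 genes over both genotypes was -0.00, against -0.02 over all probe sets tested. Sp3 was at 0.37 (adjusted p = 0.0993, limma) and Sp1, a ubiquitous GC-box activator, at -0.18 (adjusted p = 0.122). In controls Sp1 was at -0.23 and Klf3, a CtBP-binding repressor, at 0.25, and in Fyn-null mice Sp3 was at 0.45 and Klf12 at 0.16.

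Of 12 cofactors of these factors, 1 (8.33%) was called over both genotypes, near the 6.81% of all probe sets, and none in a single genotype. Sap30, a subunit of the Sin3 complex, was 7.03 to 7.22 in control saline, 7.47 to 7.54 in control ethanol, 7.11 to 7.19 in Fyn-null saline and 7.28 to 7.60 in Fyn-null ethanol. It rose by 0.36 (standard error 0.06, adjusted p = 0.00733). Named outside the rule, with values known, Sin3a itself was at -0.23 (adjusted p = 0.111) and Sin3b at 0.26 (adjusted p = 0.102).

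Of all probe sets, 6.81% were called over both genotypes, 4.22% of them all being called lower. Of 17 tested genes of pathways known to regulate Kruppel-like factors, 4 (23.5%) were called over both genotypes, all lower. The clock genes Per2 and Arntl were at -0.79 (adjusted p = 0.00194) and -0.40 (adjusted p = 0.0112). Tgfbr2, a TGF-beta receptor, was at -0.29 (adjusted p = 0.0126), and Nr3c1, the glucocorticoid receptor, at -0.36 (adjusted p = 0.0161). Per2 (-0.81) and Arntl (-0.51) were also called in controls, with adjusted p = 0.0374 and 0.0389, and none was called in Fyn-null mice, where Per2 was at -0.76 (adjusted p = 0.0765) and Tgfbr2 at -0.29 (adjusted p = 0.214). The shares over all probe sets were 1.43% in controls and 0.4% in Fyn-null mice. Of 16 tested genes known as targets of Kruppel-like factors, 1 (6.25%) was called over both genotypes, near the 6.81% of all probe sets, and none in a single genotype. It was Thbd, the endothelial anticoagulant receptor thrombomodulin, at -0.53 (adjusted p = 0.0258). Thbd was at -0.64 in controls (adjusted p = 0.0917), and Cdkn1a, a cell cycle inhibitor, at 0.45 (adjusted p = 0.147). In Fyn-null mice Smad7, an inhibitor of TGF-beta signalling, was at -0.29 (adjusted p = 0.233) and Thbd at -0.42 (adjusted p = 0.389). The listed amino acid catabolism genes Prodh, Aass and Gpt, known targets of Klf15 and chosen for naming with values known, were at 0.07, 0.13 and -0.12 over both genotypes, with adjusted p = 0.641, 0.582 and 0.30.

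Genes known to be induced by glucocorticoids, as Klf9 and Klf15 are, were mostly higher. Of 20 tested, 14 were called over both genotypes, 7 in controls and 8 in Fyn-null mice, all higher. Of all probe sets, 2.58%, 0.509% and 0.254% were called higher in these comparisons. The median difference of the 20 over both genotypes was 0.57 against -0.02 over all probe sets. Tsc22d3 was at 1.36 (adjusted p = 1.26e-07), Arrdc2 at 1.19 (adjusted p = 1.21e-06), Sgk1, a kinase, at 1.03 (adjusted p = 2.65e-06) and Fkbp5, a chaperone of the glucocorticoid receptor, at 1.36 (adjusted p = 4.5e-06). In controls Tsc22d3, Arrdc2, Sgk1 and Fkbp5 were at 1.40, 1.18, 1.07 and 1.45, and in Fyn-null mice at 1.32, 1.19, 1.00 and 1.28. Neither corticosterone nor an antagonist was part of these samples, and a link between this list and the Klf values was not tested. This list, like the others, was chosen with earlier results of these data known, so its counts are not independent evidence.

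Activity-dependent genes were mostly lower after ethanol, with negative differences for 11 of 13 over both genotypes. Of all probe sets, 6.81% were called over both genotypes (2.58% higher, 4.22% lower), 1.43% in controls and 0.4% in Fyn-null mice. Of 13 activity genes tested, 7 were called over both genotypes, 1 higher and 6 lower, 2 in controls and 3 in Fyn-null mice. Jun was at 0.77 (adjusted p = 0.000573), and Npas4, an activity-dependent factor of neurons, at -1.54 (adjusted p = 0.000192), Egr1 at -0.73 (adjusted p = 0.00156) and Fos at -0.78 (adjusted p = 0.00826). In controls Jun and Npas4 were called, at 0.67 and -1.57, and in Fyn-null mice Jun, Npas4 and Egr1, at 0.88, -1.52 and -0.89.

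Markers of other cell types were called singly over both genotypes, where 6.81% of all probe sets were called. Rgs5 of 8 mural cell markers was at -0.33, Aif1 of 6 microglial markers at -0.44 and Sox9 of 8 astrocyte markers at -0.43. Mal of 7 oligodendrocyte markers was at 0.53, 0 of 8 neuronal markers were called (at unadjusted p under 0.05 in 0), and the 1 tested blood marker was called lower at -0.37. The summed linear value of the mural cell markers was 1930 to 2000 in control saline, 1480 to 1600 in control ethanol, 1860 to 2110 in Fyn-null saline and 1680 to 1990 in Fyn-null ethanol, so it was apart by treatment in controls and overlapped in Fyn-null mice. That of the astrocyte markers was 14200 to 16100 over all arrays, with overlapping groups. Their part in the Klf values was not tested.

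As a description, the genes whose levels most resembled those of the called members over the 12 arrays were sought among 12323 genes, each gene by its brightest probe set. For Klf9 they were Cyp1b1 (r = 0.968), Golm1 (0.962) and Jun (0.96), and for Klf10 P4ha1 (0.969), Mettl3 (0.968) and Slco1a4 (0.961). For Klf15 they were Tmcc3 (0.975), Amer3 (0.958) and Fam214a (0.955), and for Klf6 Psd2 (0.964), Btbd7 (0.954) and Spg21 (0.923). The arrays share treatment, pools and 3′ weighting, so these values say nothing of shared control.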

How the data were processed

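RNA of medial PFC was profiled on 12 Affymetrix arrays, in 4 groups of 3 from GEO's labels. The deposited values are log2 RMA expression per probe set, which the authors computed with affy (submitters' processing notes). The sources used here give no version for it. The methods include a step for hybridization batch effects, and whether these values had it is unclear. Values ranged from 1.62 to 14.4 with 0 missing, array medians from 5.40 to 5.48. All arrays of a region were processed in 1 day. The S-scores and SAM of the study need probe-level data, so limma 3.58.1 in R 4.3.3 (lmFit, eBayes) was used, with 4 group means or additive genotype and treatment. The 64 control probe sets and the 45% with the lowest mean were left out, and p-values were adjusted over the remaining 24770.

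Of the probe sets besides controls, 34945 had 1 gene symbol, 932 several and 9160 none. Members and gene lists were chosen with earlier results of these data known. Named were all member probe sets, called genes of each list (up to 4 by p, or the 2 lowest p), and the 3 genes most like each called member. Replicate numbers were not used as pairs, since 3 of 13 same-numbered pairs had a residual correlation over 0.1. Alternatives were other filters, quantile normalization, a replicate block, trend and robust eBayes, arrayWeights, a fit of the groups compared, omission of pools, the 3′ minus 5′ covariate and averaging the probe sets of each gene. P-values measure the spread between pools.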

Additional observations from a re-analysis of the deposited data

How the results depend on the processing

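Numbers of called Klf probe sets moved with the analysis. With replicate number as a block the count was 1 in controls and 5 over both genotypes, against 5 and 8 without it. The replicate block left Klf10 at -0.83 in controls (adjusted p = 0.0233) and Klf15 at 0.60 (adjusted p = 0.0728). A fit of only the groups compared gave 1 in controls and 1 in Fyn-null mice. With the 3′ minus 5′ covariate the counts were 0 in controls, 0 in Fyn-null mice and 0 over both genotypes. Without both doubtful pools they were 1, 1 and 6, and 2 between genotypes over both treatments, where the count had been 0. Of all 24770 probe sets, 147, 54, 1309 and 669 were called in those fits. With arrayWeights 9 were called in Fyn-null mice and 7 between genotypes under ethanol, beside 2781 and 3975 of all probe sets, but 1 array (Fyn-null ethanol replicate 3) took a weight of 10.3 against 0.454 to 1.45 for the others and the estimation had not converged. Leaving out 1 pool gave 1 to 5 in controls, 1 to 3 in Fyn-null mice and 6 to 8 over both genotypes. It gave 0 in the other comparisons. The cause of these shifts was not tested.

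Among 3059 values of single probe sets or genes under an alternative, 2959 kept their direction and side of the threshold or stayed uncalled, 84 lost a call and 16 gained one. None reversed while called, and 180 changed sign with neither value called. Of 24 results called in the main fit, 8 were called in every alternative. These 8 were results for genes, whose only alternative was the average of all probe sets. Each call of a single probe set ended in at least 1 alternative, the 3′ minus 5′ covariate among them. With all probe sets of a gene averaged, Klf9, Klf10 and Klf15 were called over both genotypes at 0.49, -0.83 and 0.49. The 3 pools per group limit precision.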
